A study of Mus musculus with 50 samples.

Results

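Endothelial cells of liver and liver tumour were followed here through 10 genes, Stab2, Lyve1, Clec4g, Fcgr2b, Cd34, Plvap, Vwf, Esm1, Pecam1 and Kdr. They were taken by name from the 45792 genes of the count table as known markers of endothelium, with earlier results of these data known. RNA-seq was performed on liver and liver tumour of C3H/He mice harvested at 48 weeks, which had been fed the control diet or the ALIOS diet, a high trans-fat diet with fructose in the drinking water that models fast food. Non-tumour liver was taken on the control diet (12 control livers) and on the ALIOS diet (11 ALIOS livers). Tumours that arose without a carcinogen numbered 12 on the ALIOS diet (ALIOS tumours) and 1 on the control diet (T7). Where the mice had received the carcinogen diethylnitrosamine (DEN), 8 tumours were from the ALIOS diet (ALIOS DEN tumours) and 5 from the control diet (control DEN tumours). No DEN-treated non-tumour liver was analysed here, so that against liver the effect of DEN and that of being a tumour cannot be told apart. The study counts as many mice as tumours without DEN. The labels do not say whether the DEN tumours came from separate mice, or any tumour from a mouse whose liver was also used. The p-values measure the spread between these samples.

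The capillaries of the liver, the sinusoids, are lined by a specialised endothelium that is perforated, lacks a continuous basement membrane and takes up large molecules from the blood through scavenger receptors. When this endothelium loses its specialised features it comes to resemble the lining of ordinary capillaries, which is called capillarisation and is known from fibrotic liver and from hepatocellular carcinoma, where immunostaining for CD34 is used in diagnosis. Of the sinusoidal genes, Stab2 (stabilin 2) and Lyve1 encode hyaluronan receptors, Clec4g (LSECtin) a C-type lectin and Fcgr2b an inhibitory Fc receptor that clears immune complexes. Lyve1 is also a lymphatic marker and Fcgr2b is also expressed by B cells and macrophages. Of the vessel genes, Cd34 encodes a sialomucin of capillaries and progenitor cells, Plvap the protein of the diaphragms that span endothelial openings, Vwf von Willebrand factor, which tethers platelets, and Esm1 (endocan) a secreted proteoglycan of angiogenic tip cells. Pecam1 (CD31) and Kdr (VEGF receptor 2) belong to the endothelium of both kinds of vessel.

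Stab2 lies at chr10:86841198-87008025 on the minus strand of GRCm38, Lyve1 at chr7:110850607-110863239 (minus), Clec4g at chr8:3707064-3720651 (minus) and Fcgr2b at chr1:170958617-170976547 (minus). Cd34 lies at chr1:194938819-194961279 (plus), Plvap at chr8:71497765-71511752 (minus), Vwf at chr6:125546774-125686679 (plus) and Esm1 at chr13:113209659-113218098 (plus). Pecam1 is at chr11:106654217-106750628 (minus) and Kdr at chr5:75932827-75978458 (minus). The RefSeq promoter table held 6 of the 10 genes. The bases just before the start of a pair of sinusoidal genes and a pair of vessel genes are shown because Clec4g fell and Cd34 and Esm1 rose in the tumours described further on, with Stab2 as the second sinusoidal gene. Capitals mark words on either strand. The GATA words, bound by GATA factors, of which GATA4 is known for its part in sinusoidal identity, are AGATAA with its variant AGATAG and likewise TGATAA with its variant TGATAG. The ETS words, bound by ETS factors of endothelium, are AGGAAG and also CGGAAG.
Stab2: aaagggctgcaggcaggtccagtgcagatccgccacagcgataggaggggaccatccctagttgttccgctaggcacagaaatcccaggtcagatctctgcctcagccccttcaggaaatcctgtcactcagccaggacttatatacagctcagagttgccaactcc
Clec4g: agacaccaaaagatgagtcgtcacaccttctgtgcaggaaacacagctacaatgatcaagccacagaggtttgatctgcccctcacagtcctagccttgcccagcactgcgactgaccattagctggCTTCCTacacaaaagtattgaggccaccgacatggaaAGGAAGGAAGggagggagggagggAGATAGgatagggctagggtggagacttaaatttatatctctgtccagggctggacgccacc
Cd34: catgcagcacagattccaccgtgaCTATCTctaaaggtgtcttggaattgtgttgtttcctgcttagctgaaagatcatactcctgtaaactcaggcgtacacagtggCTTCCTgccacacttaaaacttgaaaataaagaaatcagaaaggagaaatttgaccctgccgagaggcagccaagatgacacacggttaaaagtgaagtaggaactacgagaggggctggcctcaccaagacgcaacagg
Esm1: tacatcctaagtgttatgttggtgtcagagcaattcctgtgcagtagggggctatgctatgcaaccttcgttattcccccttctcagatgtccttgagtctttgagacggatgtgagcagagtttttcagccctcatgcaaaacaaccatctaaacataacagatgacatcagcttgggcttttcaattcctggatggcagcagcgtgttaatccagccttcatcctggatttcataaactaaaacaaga
These are chr10:87008026-87008192 (minus) of 167 bases, chr8:3720652-3720901 (minus) of 250 bases, chr1:194938571-194938818 (plus) of 248 bases and chr13:113209409-113209658 (plus) of 250 bases, each ending where the Gencode exons of its own gene begin. Clec4g held 1 GATA word and 3 ETS words, of which 2 overlap by their shared AG, and Cd34 held 1 of each. Neither word was found in the windows of Stab2 and Esm1, although the untrimmed window of Stab2, which runs into its exon, held 1 ETS word. Over all 32851 RefSeq windows of 250 bases, 26.5% held a GATA word and 39.2% an ETS word. A match describes the letters only.

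Between 23798251 and 45751398 reads were counted per library. All 10 genes had at least 1 count in each of the 49 libraries used, and their lowest counts were 1 for Esm1, 8 for Cd34, 31 for Vwf, 34 for Lyve1 and 216 or more for the others, so that the liver levels of Esm1 and Cd34 carry the largest counting error. The library labelled tumour T1 held 27400 CPM over 4 kidney genes, against at most 5.69 CPM in any other library, and 0 counts of Clec4g, and was left out. In the balance of sinusoidal and vessel genes described below, libraries T2 and T23 stood nearest to liver among the tumours. T13, T18 and T24 stood furthest from liver in some sinusoidal genes. Some of the results that rest on T13, T18, T23 or T24 are also given without them. Stab2, Clec4g, Fcgr2b and Cd34 each share 141 to 155 exon bases with an antisense gene on the other strand, which had between 31 and 160 counts over all libraries against 7478 or more for the members.

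Levels are given as CPM, counts scaled to a common library size with the TMM factors. Compared between genes per kilobase of exon, the control livers were led by Clec4g with a median of 22.8 CPM per kb, followed by Plvap at 10.7, Stab2 at 6.93, Fcgr2b at 5.86, Kdr at 4.85, Pecam1 at 2.03 and Lyve1 at 1.15 CPM per kb. Vwf at 0.196, Esm1 at 0.122 and Cd34 at 0.0876 CPM per kb came last. Clec4g stood above Plvap in 12 of 12 control livers, while Stab2 was above Fcgr2b in only 8 and Esm1 above Cd34 in only 6, so the order within these last pairs was not settled. In the ALIOS livers the order was nearly the same, with Clec4g at 23.01 and Plvap at 16.1 CPM per kb. In the ALIOS tumours Plvap came first at 16.1 CPM per kb, Clec4g fell back to 11.4 and Esm1 reached 10.1, in place 3 of the 10 genes, although Plvap exceeded Clec4g in only 7 of 12 tumours. Esm1 was also in place 3 in the ALIOS DEN tumours at 8.78 and in the control DEN tumours at 6.86 CPM per kb. Vwf was last in all 3 groups of tumours.

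**Figure D1:**
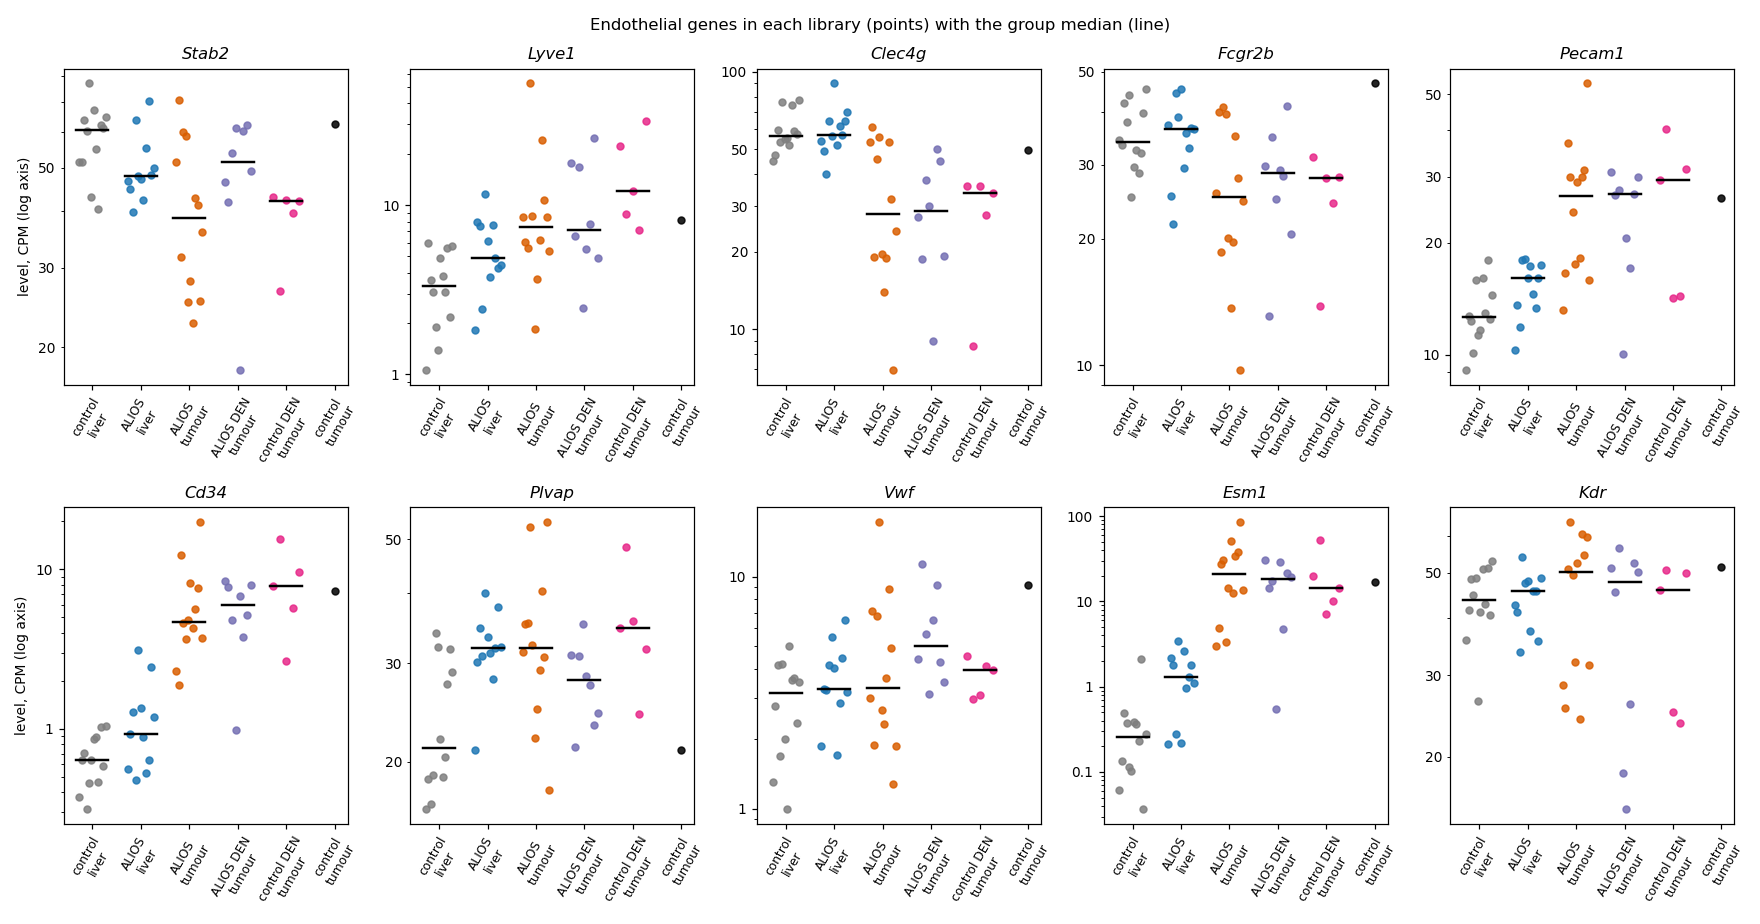
Level of each of the 10 genes in CPM (log axis), 1 point per library and a line at the group median, by group; the single point at the right of each panel is the control diet tumour without DEN. Cd34 and Esm1 step up from liver to tumour, Clec4g spreads downwards in tumours, and Kdr overlaps in all groups.

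The diet comparison in non-tumour liver asked whether these genes differed between livers of mice on the ALIOS and the control diet. The labels used here do not say which of these mice also bore tumours, which per the study were more frequent on the ALIOS diet, so that diet and tumour bearing cannot be told apart. The vessel genes Esm1 and Plvap were higher in ALIOS livers, and no sinusoidal gene was called. In all, 2 of the 10 members were called higher and 0 lower, where 6.73% of the 13723 genes tested were called higher and 4.51% lower (edgeR quasi-likelihood test, Benjamini-Hochberg adjusted p under 0.05). At an unadjusted p under 0.05, 4 members were higher and 1 lower, beside 4024 of all 13723 genes in either direction. DESeq2 called 3 members higher and 0 lower, beside 1430 and 985 of all genes. The samples are bulk tissue, in which fewer cells of a type and less RNA per cell cannot be told apart.

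Esm1 ranged from 0.0365 to 2.13 CPM in control livers, with a median of 0.256, and from 0.211 to 3.46 CPM in ALIOS livers, with a median of 1.31. The ranges overlapped, but 9 of 11 ALIOS livers were above the control median and the highest control liver, N10, was far above the next at 0.497 CPM. The log2 fold change was 1.90 ± 0.54 (SE, n = 11 and 12, adjusted p = 0.0251), or 3.74-fold, and without N10 it was 2.58 (adjusted p = 0.00222). Leaving out ALIOS liver N17, the highest, gave 1.68 (adjusted p = 0.0582), and leaving out N19 gave 1.78 (adjusted p = 0.0518).

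Plvap ranged from 16.4 to 34.0 CPM in control livers (median 21.2) and from 21.02 to 40.1 CPM in ALIOS livers (median 31.9). All but 1 ALIOS liver lay above the control median, and 3 lay above every control liver. The log2 fold change was 0.40 ± 0.13 (adjusted p = 0.0450), and this call was lost on leaving out any of 15 of the 23 libraries, at adjusted p between 0.0501 and 0.0932.

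Cd34, Lyve1 and Stab2 were not called, but their 95% intervals did not include 0. Cd34 had a median of 0.639 CPM (0.313 to 1.04) in control livers and 0.932 CPM (0.476 to 3.13) in ALIOS livers, with a log2 fold change of 0.86 ± 0.30 (adjusted p = 0.0651, 95% interval 0.23 to 1.48). Lyve1 had a median of 3.35 CPM (1.06 to 5.98) in control livers and 4.89 CPM (1.83 to 11.7) in ALIOS livers, with a log2 fold change of 0.67 ± 0.30 (adjusted p = 0.135, 95% interval 0.056 to 1.29). For Cd34 and for Lyve1, 5 of 11 ALIOS livers were above all 12 control livers. DESeq2 called Cd34 at an adjusted p of 0.0411, and edgeR did without N13 or N16, at 0.0387 or less.

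Stab2 had medians of 60.7 CPM (40.5 to 77.1) and 47.9 CPM (39.9 to 70.2) in control and ALIOS livers, and its log2 fold change was -0.22 ± 0.10 (adjusted p = 0.154, 95% interval -0.43 to -0.0088). Clec4g had 56.2 CPM (45.1 to 77.4) and 56.6 CPM (40.0 to 90.4), Fcgr2b 34.0 CPM (25.1 to 45.5) and 36.5 CPM (21.8 to 45.5), and Kdr 43.8 CPM (26.4 to 53.0) and 45.6 CPM (33.7 to 54.1). These 3 genes lay within 0.04 of no change on the log2 scale, with 95% intervals of -0.23 to 0.22 for Clec4g, -0.27 to 0.20 for Fcgr2b and -0.22 to 0.18 for Kdr. Vwf had 3.15 CPM (0.992 to 5.04) and 3.28 CPM (1.69 to 6.49), and Pecam1 12.6 CPM (9.09 to 17.99) and 16.04 CPM (10.3 to 18.1), with adjusted p of 0.412 and 0.244.

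The tumour comparisons asked how the endothelial genes of tumours differed from those of non-tumour liver on the same diet. Esm1, Cd34, Pecam1 and Lyve1 were higher and Clec4g was lower in ALIOS tumours, in ALIOS DEN tumours and in control DEN tumours, each against the livers of the same diet. Esm1 moved most, by 18.2-fold, 12.2-fold and 56.1-fold, and Clec4g fell by 0.82, 0.95 and 1.02 on the log2 scale. Members called higher were 4 of 10 in ALIOS tumours, 5 in ALIOS DEN tumours and 5 in control DEN tumours, beside 26.9%, 27.7% and 27.3% of all genes tested. Members called lower were 1, 1 and 3 of 10, beside 25.9%, 19.8% and 24.4% of all genes. The ALIOS livers served in the first and the second of these comparisons and in the diet comparison, so these are not independent of each other.

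**Figure D2:**
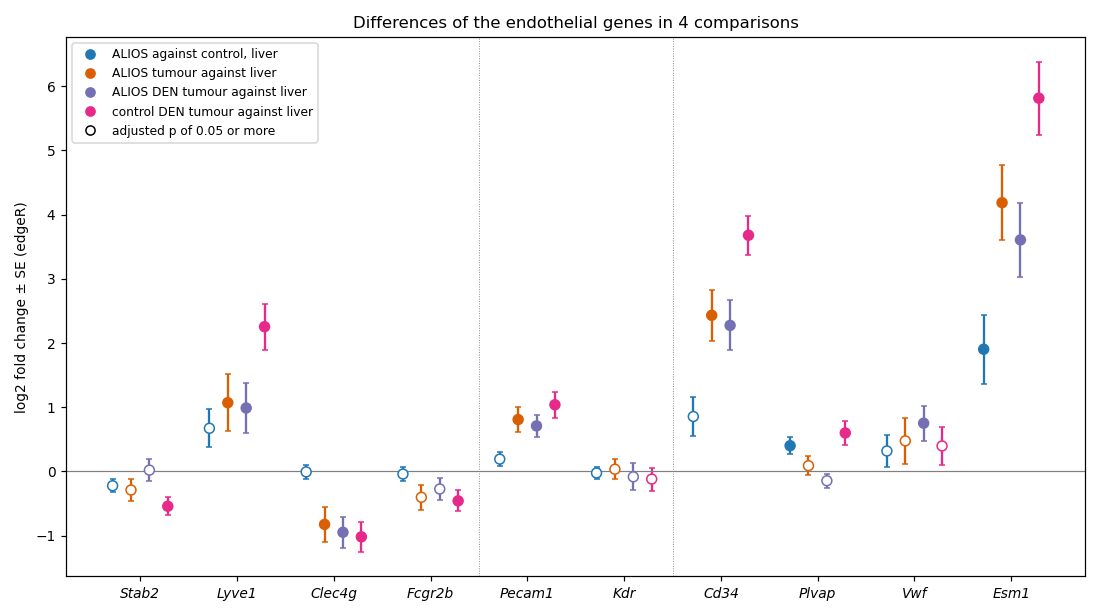
Log2 fold change with its SE from edgeR for the 10 genes in the diet comparison of livers and in 3 comparisons of tumours with livers, filled where the adjusted p was under 0.05. The 4 sinusoidal genes are at the left and the 4 vessel genes at the right; Esm1 and Cd34 lie highest in each tumour comparison and Clec4g lowest.

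Clec4g was the sinusoidal gene that fell in each tumour comparison. In ALIOS tumours it ranged from 6.91 CPM in T13 to 60.7 CPM in T3 with a median of 28.1, and in ALIOS DEN tumours from 8.95 CPM in T24 to 50.3 CPM in T25 with a median of 28.8. In 7 of 12 ALIOS tumours and 6 of 8 ALIOS DEN tumours it was below all 11 ALIOS livers, and the ranges overlapped. The log2 fold changes were -0.82 ± 0.27 (adjusted p = 0.0139) and -0.95 ± 0.24 (adjusted p = 0.0035). The control DEN tumours held 35.9 CPM in T17, 8.61 in T18, 35.9 in T19, 27.7 in T20 and 33.8 in T21. All 5 were below all 12 control livers, T18 furthest, and the log2 fold change was -1.02 ± 0.23 (adjusted p = 0.00109), or -0.79 without T18.

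Stab2 differed less. In ALIOS tumours it ranged from 22.6 CPM in T10 to 70.8 CPM in T3 with a median of 38.7, 6 of 12 below all ALIOS livers and 1 above all of them. Its log2 fold change of -0.29 ± 0.17 was not called (adjusted p = 0.165, 95% interval -0.64 to 0.068), except on leaving out T3, which gave -0.38 (adjusted p = 0.0489). The ALIOS DEN tumours ranged from 17.8 CPM in T24 to 62.3 CPM in T26 with a median of 51.5, above the 47.9 of the ALIOS livers, and the log2 fold change was 0.021 (95% interval -0.34 to 0.39). The control DEN tumours held 43.2 CPM in T17, 26.7 in T18, 42.3 in T19, 39.6 in T20 and 42.1 in T21. These 5 were below the control median of 60.7 CPM, 2 of them below every control liver, and Stab2 fell by 0.54 on the log2 scale (SE 0.14, adjusted p = 0.0031), or by 0.44 without T18 (adjusted p = 0.0132).

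Fcgr2b ranged from 9.72 CPM in T13 to 41.3 CPM in T5 (median 25.2) in ALIOS tumours and from 13.1 CPM in T16 to 41.4 CPM in T26 (median 28.7) in ALIOS DEN tumours. Most of these lay below the median of the ALIOS livers, 9 of 12 and 7 of 8, without passing the test. Log2 fold changes were -0.40 ± 0.20 (adjusted p = 0.0920, 95% interval -0.81 to 0.0078) and -0.27 ± 0.17 (adjusted p = 0.206, 95% interval -0.64 to 0.091), the first passing without T3 (adjusted p = 0.0499). In control DEN tumours Fcgr2b was 31.3 CPM in T17, 13.8 in T18, 27.9 in T19, 24.4 in T20 and 28.1 in T21, against a control median of 34.0. All 5 lay below that median and 2 below every control liver. The log2 fold change of -0.46 ± 0.16 was called (adjusted p = 0.0243), but -0.31 without T18 was not (adjusted p = 0.0786).

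Lyve1 was the sinusoidal gene that was called higher in tumours. It ranged from 1.85 CPM in T8 to 52.8 CPM in T5 (median 7.38) in ALIOS tumours and from 2.47 CPM in T23 to 24.9 CPM in T26 (median 7.15) in ALIOS DEN tumours. Only 2 of 12 and 3 of 8 were above all ALIOS livers. The log2 fold changes were 1.07 ± 0.44 (adjusted p = 0.0437) and 0.99 ± 0.39 (adjusted p = 0.0447). Both calls were fragile. The first was lost on leaving out any of 9 of the 23 libraries, with 0.58 left without T5 (adjusted p = 0.159). The second was lost without T15, T22 or T26 at 0.67 to 0.87, where only tumours were left out. In control DEN tumours Lyve1 was 22.4 CPM in T17, 8.91 in T18, 12.1 in T19, 7.14 in T20 and 31.3 in T21, all above the highest control liver at 5.98. The log2 fold change was 2.25 ± 0.36 (adjusted p = 3.46e-05), or 4.77-fold.

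Lymphatic genes were listed beside these genes. The 3 lymphatic genes (Pdpn, Ccl21a, Mmrn1) summed to at most 1.11 CPM in livers and in the 25 tumours compared with them, and to 1.695 CPM in T7. Ccl21a was at 0 in all libraries used, so that only Pdpn and Mmrn1 made up these sums. The single lymphatic gene that passed the filter, in control DEN tumours against livers, was not called. Lyve1 itself was between 1.06 and 52.8 CPM, and the part of lymphatic vessels in its level was not tested.

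Cd34 rose in each tumour comparison. In ALIOS tumours it ranged from 1.89 CPM in T3 to 19.8 CPM in T13 with a median of 4.71, and in ALIOS DEN tumours from 0.987 CPM in T23 to 8.44 CPM in T15 with a median of 5.98. It was above all ALIOS livers in 10 of 12 and in 7 of 8 tumours, T23 being the exception among the latter. The log2 fold changes were 2.43 ± 0.40 (adjusted p = 2.47e-05) and 2.27 ± 0.39 (adjusted p = 9.78e-05), or 5.39-fold and 4.84-fold. The control DEN tumours held 7.84 CPM in T17, 15.6 in T18, 2.68 in T19, 5.71 in T20 and 9.56 in T21, all above the highest control liver at 1.04 CPM. The log2 fold change was 3.68 ± 0.30 (adjusted p = 7.97e-09), or 12.8-fold, and 3.31 without T18.

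Esm1 had the largest changes of the 10. ALIOS tumours ranged from 2.99 CPM in T2 to 85.7 CPM in T13 with a median of 21.2, and ALIOS DEN tumours from 0.545 CPM in T23 to 30.8 CPM in T15 with a median of 18.4. Again 10 of 12 and 7 of 8 were above all ALIOS livers, and T23 alone lay below their median of 1.31 CPM. The log2 fold changes were 4.18 ± 0.58 (adjusted p = 3.63e-06) and 3.61 ± 0.58 (adjusted p = 4.98e-05), the latter 3.78 without T23. In control DEN tumours Esm1 was 19.8 CPM in T17, 52.9 in T18, 7.05 in T19, 9.98 in T20 and 14.4 in T21. All 5 exceeded the highest control liver, N10 at 2.13 CPM, and the log2 fold change was 5.81 ± 0.57 (adjusted p = 8.53e-08), or 5.09 without T18.

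Plvap and Vwf, the other vessel genes, did not follow them. Plvap was 17.8 CPM in T14 to 53.7 CPM in T13 (median 31.9) in ALIOS tumours and 21.2 to 35.2 CPM (median 27.9) in ALIOS DEN tumours, beside a median of 31.9 CPM in ALIOS livers. Its log2 fold changes were 0.091 (95% interval -0.22 to 0.40) and -0.14 (95% interval -0.37 to 0.086). In control DEN tumours it was 34.7 CPM in T17, 48.5 in T18, 35.7 in T19, 24.3 in T20 and 31.9 in T21, which 3 times exceeded every control liver. This log2 fold change of 0.60 ± 0.18 was called (adjusted p = 0.0101), and 0.45 without T18 was not (adjusted p = 0.0581). Vwf ranged from 1.28 CPM in T13 to 17.2 CPM in T6 (median 3.31) in ALIOS tumours and from 3.12 CPM in T23 to 11.3 CPM in T16 (median 5.04) in ALIOS DEN tumours. Only the second was called, at 0.75 ± 0.27 (adjusted p = 0.0279), and leaving out T16 or T25 ended that call (adjusted p = 0.0943 and 0.0701). The control DEN tumours held Vwf at 4.55 CPM in T17, 2.96 in T18, 3.10 in T19, 4.12 in T20 and 3.97 in T21, within the range of the control livers, with a log2 fold change of 0.40 (adjusted p = 0.267, 95% interval -0.21 to 1.01).

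Vwf is also carried by platelets and megakaryocytes. The 5 platelet genes (Itga2b, Gp9, Pf4, Ppbp, Gp1ba) summed to 31.1 CPM in T24 and to at most 6.33 CPM in the other libraries used. Pf4 was called in ALIOS DEN tumours (log2 fold change 2.15 ± 0.77, adjusted p = 0.0267) and was 17.96 CPM in T24 beside a group median of 0.470. Without T24 it was -0.45 (adjusted p = 0.257), and it was the only platelet gene called in any comparison. Vwf was also called without T24, but not by edgeR with all 6 groups in 1 fit (adjusted p = 0.0992). Of the 5 platelet genes only 2 passed the filter, and the part of platelets in the level of Vwf was not tested.

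Pecam1, which belongs to both kinds of vessel, rose in each tumour comparison. It ranged from 13.2 CPM in T2 to 53.6 CPM in T13 (median 26.7) in ALIOS tumours and from 10.1 CPM in T23 to 31.0 CPM in T15 (median 26.9) in ALIOS DEN tumours. Above all ALIOS livers stood 8 of 12 and 6 of 8. The log2 fold changes were 0.81 ± 0.19 (adjusted p = 0.00105) and 0.71 ± 0.17 (adjusted p = 0.00209). In control DEN tumours it was 29.4 CPM in T17, 40.4 in T18, 14.2 in T19, 14.4 in T20 and 31.6 in T21, with 3 above every control liver and T19 and T20 within their range. The log2 fold change was 1.04 ± 0.20 (adjusted p = 0.000231).

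Kdr showed no shift of its mean. It ranged from 24.2 CPM in T10 to 64.5 CPM in T5 (median 50.1) in ALIOS tumours and from 15.4 CPM in T24 to 56.5 CPM in T22 (median 47.9) in ALIOS DEN tumours. Tumours lay both above all ALIOS livers (4 of 12 and 1 of 8) and below all of them (5 of 12 and 3 of 8). The log2 fold changes were 0.035 (95% interval -0.29 to 0.36) and -0.082 (95% interval -0.53 to 0.36). Kdr in control DEN tumours was 46.0 CPM in T17, 50.7 in T18, 25.04 in T19, 23.6 in T20 and 49.98 in T21, which split into 3 at the liver level and 2 below every control liver. Their log2 fold change was -0.12 (95% interval -0.49 to 0.26).

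The balance of the 2 kinds of gene was described for each library as the mean log2 CPM of Stab2, Lyve1, Clec4g and Fcgr2b minus that of Cd34, Plvap, Vwf and Esm1, a value that does not depend on the scaling of the library and has no test here. It was 3.69 ± 0.37 (SD, n = 12) in control livers and 2.98 ± 0.56 (SD, n = 11) in ALIOS livers. In tumours it was 1.05 ± 0.95 (SD, n = 12) without DEN on the ALIOS diet, 1.25 ± 0.93 (SD, n = 8) with DEN on the ALIOS diet and 1.12 ± 0.95 (SD, n = 5) with DEN on the control diet. In 10 of 12, 7 of 8 and 5 of 5 tumours the balance was below that of all 23 livers. The lowest values were -0.76 in T13, -0.52 in T18 and -0.13 in T24, the highest 2.67 in T23 and 2.44 in T2. Tumours of 1 group thus spread more widely than livers. Without T18 the control DEN tumours had 1.53 ± 0.31, without T23 and without T24 the ALIOS DEN tumours had 1.05 ± 0.79 and 1.45 ± 0.80, and without T13 the ALIOS tumours had 1.21 ± 0.80.

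**Figure D3:**
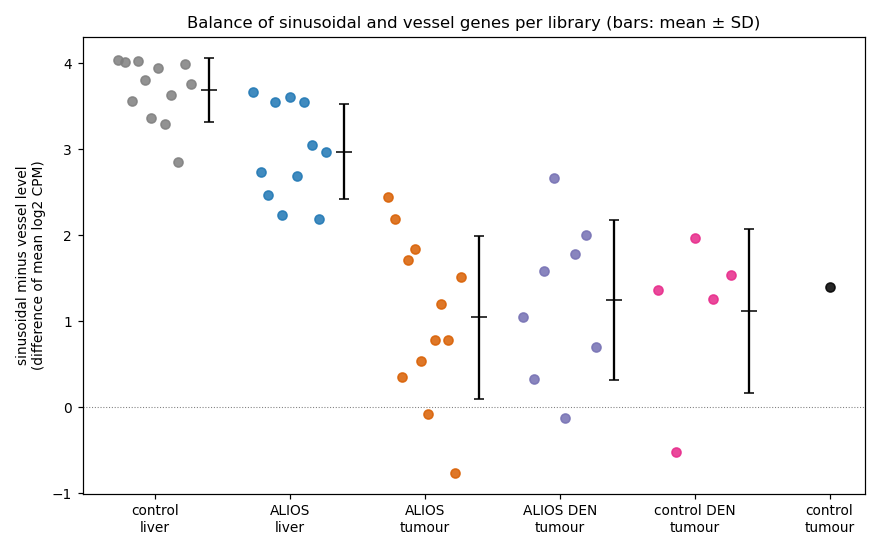
Mean log2 CPM of 4 sinusoidal genes minus that of 4 vessel genes in each library (points), with the group mean and SD (bars). Livers lie between 2.19 and 4.04, tumours between -0.76 and 2.67, with T7 at 1.40.

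A change of balance could be a change of the sinusoidal genes, of the vessel genes or of both, and the difference between tumours and livers was -1.93, -1.72 and -2.57 in the 3 comparisons, or -3.11, -2.72 and -4.37 with medians of levels per kilobase. Esm1 had the largest part, since in control DEN tumours the difference was -1.51 without Esm1. From control livers to control DEN tumours, mean log2 CPM fell in Stab2 (5.84 to 5.26), Clec4g (5.87 to 4.67) and Fcgr2b (5.13 to 4.60). Lyve1 rose (1.66 to 3.81), which on the scale of the balance offset these falls in part. Among vessel genes, Esm1 went from -1.70 to 4.01, Cd34 from -0.54 to 2.84, Plvap from 4.53 to 5.10 and Vwf from 1.44 to 1.91. Summed CPM weigh the genes with high levels most. Stab2, Lyve1, Clec4g and Fcgr2b together had medians of 155.6 and 154.9 CPM in control and ALIOS livers, 101 in ALIOS tumours, 120 in ALIOS DEN tumours and 118 in control DEN tumours. Cd34, Plvap, Vwf and Esm1 together had medians of 24.9 and 37.6 CPM in control and ALIOS livers, and of 67.0, 55.1 and 59.8 CPM in the tumour groups.

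Beyond these members, 16 other sinusoidal genes were listed. In ALIOS tumours 2 of 16 rose and 6 fell, with a median log2 fold change of -0.43 beside 0.010 over all genes tested. ALIOS DEN tumours had the same counts, 2 and 6, with a median of -0.36 beside 0.077, and control DEN tumours had 2 and 9, with a median of -0.47 beside 0.031. Over all genes tested, 26.9%, 27.7% and 27.3% were called higher and 25.9%, 19.8% and 24.4% lower in these 3 comparisons, and the counts of each list below stand beside these shares. Leaving out single libraries moved the first count of genes that fell, to 3 without N16, N22, T12 or T13 and to 9 without T11, and in the DEN tumours 6 to 9 fell. It was 3 without the low-count filter and 2 with T1 kept. Rspo3, the Wnt amplifier that central vein endothelium gives to pericentral hepatocytes, fell by 1.27 (adjusted p = 0.0203), by 1.05 (adjusted p = 0.0134) and by 1.69 (adjusted p = 0.000251) on the log2 scale in the 3 comparisons. Wnt2, an angiocrine Wnt ligand of the sinusoids, fell by 1.97 in control DEN tumours (adjusted p = 1.85e-05), and Ehd3 fell by 0.86, 0.78 and 0.98. Stab1, the scavenger receptor related to Stab2, rose by 0.71, 0.63 and 0.76, and Flt4 (VEGF receptor 3) by 1.34, 0.80 and 0.95. Leaving out single libraries ended the call of Flt4 in ALIOS DEN tumours, where its adjusted p was 0.0488.

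Of 19 genes of endothelium in general, 11 rose and 1 fell in ALIOS tumours (median 0.53), 10 and 1 in ALIOS DEN tumours (median 0.57) and 11 and 1 in control DEN tumours (median 0.67). Emcn (endomucin) rose by 1.39, 1.07 and 1.41, and Sox18, an endothelial transcription factor, by 1.04 in ALIOS tumours and 1.10 in control DEN tumours. The gene that fell was S1pr1, the sphingosine 1-phosphate receptor that stabilises vessels, by 0.51, 0.35 and 0.98.

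In the tumour comparisons, other vessel and basement membrane genes had the largest median changes of the lists beyond the members. Of 20, the filter passed 19, 18 and 18, and 14, 10 and 14 rose while 0 fell, with medians of 1.29, 1.34 and 1.65. In the diet comparison of livers the filter passed only 17, and Sele, Apln and Aplnr had 0 counts in some control livers. A gene that passed here only through the tumours could hardly be called lower. At an unadjusted p under 0.05, 0, 1 and 0 were lower. DESeq2 called 1 of them lower in ALIOS DEN tumours, and so did edgeR with size factors in place of TMM. Nid1, the basement membrane glycoprotein nidogen 1, rose by 3.78 ± 0.39, 4.27 ± 0.45 and 4.91 ± 0.15. Apln (apelin), a peptide of tip cells, rose by 5.24 ± 0.72 in ALIOS tumours and by 5.24 ± 0.67 in control DEN tumours. Gja5, a connexin of arterial endothelium, rose by 2.44 and 2.63 in the tumours on the ALIOS diet, and Cav2, a component of caveolae, by 2.75 and 3.40 in DEN tumours on the ALIOS and control diets. Nidogen, collagen IV and caveolin genes are not particular to endothelium, and the cells that expressed them were not resolved.

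Ligands and other receptors of the VEGF and angiopoietin families were also listed, without asking which of them act on Kdr. Of 6 ligands tested, 4 rose and 0 fell in each tumour comparison (edgeR, with 0 lower at an unadjusted p under 0.05 and 0 by DESeq2). Angpt2, the ligand that destabilises vessels, rose by 1.41, 1.67 and 1.19, Angpt1 by 1.67, 1.34 and 3.49 and Vegfd by 1.37, 1.72 and 1.72. Of 6 receptors 2 rose (Flt1 and Flt4) and 2 fell in each comparison, near the shares over all genes, and in ALIOS DEN tumours 1 rose with DESeq2, with its size factors or without the filter. Nrp1 fell by 1.05, 0.98 and 0.52 and Nrp2, like it a VEGF co-receptor, by 0.85, 0.95 and 0.96. The call of Angpt1 in ALIOS DEN tumours was lost without T15, T22, T26 or T27 (adjusted p between 0.0562 and 0.0740), and that of Nrp1 in control DEN tumours without T19, T20 or T21 (between 0.0506 and 0.0676). In ALIOS livers against control livers the same lists had few calls, among them Flt4 at 0.80 (adjusted p = 0.00678), Angpt1 at 1.61 (adjusted p = 0.00167), Hey1 at 1.21 (adjusted p = 0.0261), Vcam1 at 0.87 (adjusted p = 0.0140) and Stab1 at -0.25 (adjusted p = 0.0423). The call of Stab1 was lost on leaving out any of 13 of the 23 libraries, and that of Hey1 without N17 (adjusted p = 0.0626). Counts there were 2 higher and 1 lower of 16 other sinusoidal genes, 0 of 19 general endothelial genes (1 at an unadjusted p under 0.05, 0 by DESeq2), 4 higher of 17 vessel genes, 1 higher of 6 ligands and 1 higher of 6 receptors, beside 6.73% higher and 4.51% lower over all genes. With all 6 groups in 1 fit they were 0 sinusoidal genes, 2 vessel genes, 1 ligand and 0 receptors, the call of Flt4 being lost. The sharing of Flt4 between the sinusoidal and receptor lists means that it was counted in both.

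**Figure D4:**
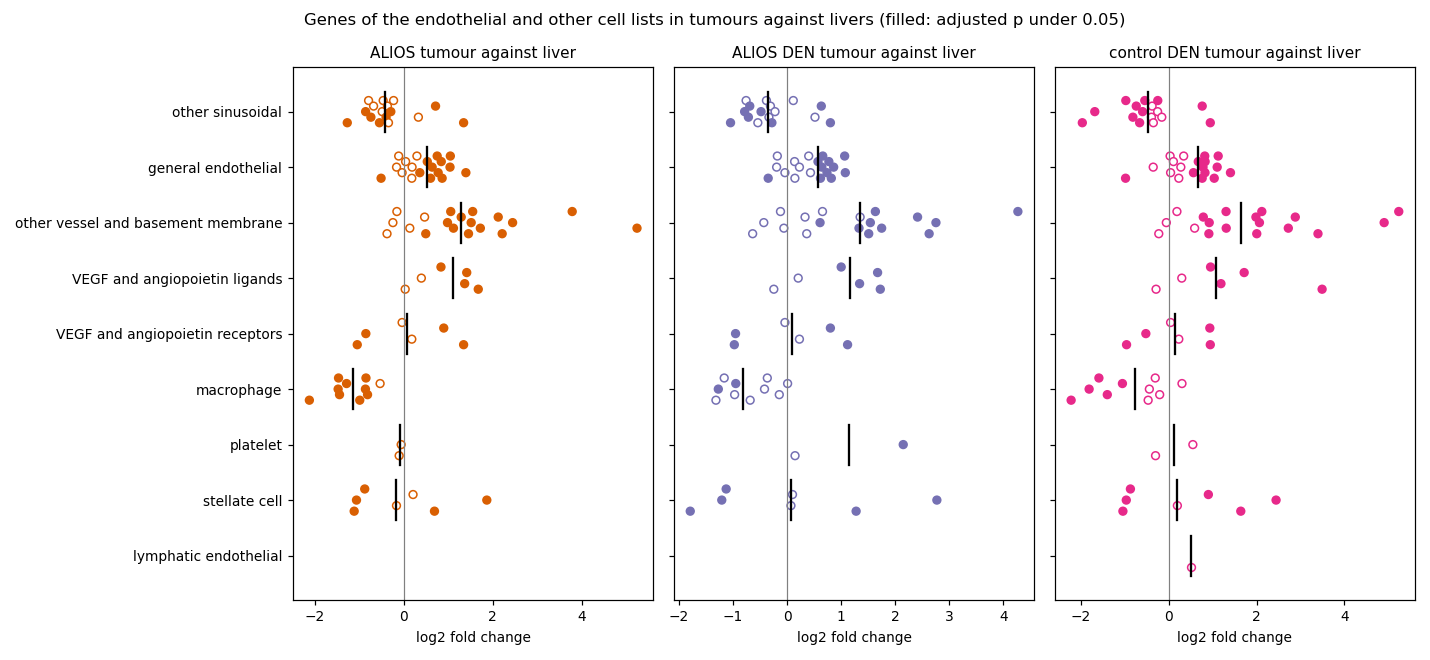
Log2 fold change of each gene of 9 lists in 3 comparisons of tumours with livers (points, filled where the edgeR adjusted p was under 0.05), with the median of the list (bar). Other sinusoidal genes lie mostly below 0 and other vessel and basement membrane genes mostly above it, with macrophage genes below it in ALIOS tumours.

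Genes of other cell types moved in the same libraries. The 10 macrophage genes fell in 9 of 10 cases in ALIOS tumours (median -1.14), in 2 in ALIOS DEN tumours and in 5 in control DEN tumours, and 9 of 10 rose with the ALIOS diet in livers (median 0.80), but 0 with all 6 groups in 1 fit. Their sum was 233 to 499 CPM in control livers, 310 to 1161 in ALIOS livers, 53.0 to 623 in ALIOS tumours, 48.1 to 717 in ALIOS DEN tumours and 86.3 to 258 in control DEN tumours. Among 7 stellate cell genes 2 rose and 3 fell in both tumour groups on the ALIOS diet, and 3 rose and 3 fell in control DEN tumours, with Acta2 up by 1.86, 2.77 and 2.44 and Rgs5 down in each. Among 7 hepatocyte genes 3 rose in each and 3, 2 and 2 fell. Of 4 cholangiocyte genes 1 rose in each of the 4 comparisons, in ALIOS DEN tumours Krt19, which was 60.5 CPM in T24 and at -1.22 on the log2 scale without it, and the 4 kidney genes did not pass the filter. T2 and T23, the tumours with the highest balance, had the highest macrophage sums of their groups at 623 and 717 CPM, the lowest hepatocyte sums of their groups at 80880 and 87090 CPM, and the lowest sums of other vessel genes at 106 and 119 CPM. The macrophage count in ALIOS DEN tumours was 0 without T27, 1 without T15 or T22, 4 without T25, 5 without T24 and 6 without T23, and that in ALIOS tumours was 5 without N19. The part of these other cells in the results above was not tested.

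Among tumours on the ALIOS diet, those with DEN were compared with those without. None of the 10 members was called (0 at an unadjusted p under 0.05, 0 by DESeq2), and no gene of 14845 was (0%, edgeR), although 1079 had an unadjusted p under 0.05 and DESeq2 called 75. Log2 fold changes of the members ran from -0.63 for Esm1 (95% interval -1.90 to 0.65) to 0.25 for Stab2 (95% interval -0.23 to 0.74). Like that of Esm1, the intervals of Cd34, -1.05 to 0.64, and Lyve1, -1.25 to 0.98, allow changes of more than 1.5-fold either way. For Clec4g the interval was -0.95 to 0.58.

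Within DEN tumours, the ALIOS diet was compared with the control diet. Of the members 0 were called, beside 0.0134% of 14944 genes, and 1 had an unadjusted p under 0.05, beside 1273 of all genes. The smallest unadjusted p among them was that of Vwf, 0.0445, with a log2 fold change of 0.69 ± 0.31 and an adjusted p of 0.577. The other members lay between -0.59 for Lyve1 (95% interval -1.71 to 0.53) and 0.35 for Stab2 (95% interval -0.18 to 0.87). DESeq2 called 0 of the 10 as well.

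Whether the difference between DEN tumour and liver depended on the diet was tested as an interaction, the change on the ALIOS diet minus that on the control diet. In this test 2.27% of 15606 genes were called and 0 of the 10 members. An unadjusted p under 0.05 was found for 5 members, beside 2617 of all genes. Plvap came closest with -0.74 ± 0.21 (adjusted p = 0.0563), was called by DESeq2 at -0.75 (adjusted p = 0.0284), and was called by edgeR on leaving out any of T15, T20, T22, T23 and T24. Cd34 was at -1.39 ± 0.53 (adjusted p = 0.160), Esm1 at -2.19 ± 0.86 (adjusted p = 0.173), Lyve1 at -1.26 ± 0.57 (adjusted p = 0.254) and Stab2 at 0.56 ± 0.23 (adjusted p = 0.210). Stab2 was called without T24, at 0.68 (adjusted p = 0.0235). The larger folds of Cd34, Esm1 and Lyve1 on the control diet are therefore not shown to differ from those on the ALIOS diet. Of the other endothelial lists, S1pr1 (0.64, adjusted p = 0.0362) and Selp (-1.22, adjusted p = 0.0332), the P-selectin of activated endothelium, were called, but S1pr1 not without T17, T19, T20, T23 or T25 and Selp not without T17, T18, T19 or T20. Neither was called without the low-count filter (adjusted p = 0.0580 and 0.0587) or with all 6 groups in 1 fit (0.0788 and 0.142).

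The 1 tumour on the control diet without DEN, T7, gives values without a replicate check. Its Stab2 at 62.4 CPM and Clec4g at 49.6 CPM were within the range of the control livers, and its Fcgr2b at 47.0 CPM was just above their highest value of 45.5. Its Cd34 was 7.28 CPM, its Esm1 17.1 CPM and its Pecam1 26.4 CPM, all above every control liver. Vwf at 9.23 and Lyve1 at 8.15 CPM were also above every control liver, and Plvap at 21.01 and Kdr at 51.5 CPM were within the liver range.

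How the genes varied together within groups was described by the correlation of their log2 CPM after subtracting the group means, over the 48 libraries of the groups with more than 1 library. Libraries of a group share diet and tissue state, all levels share the scaling of their library, and no test was made. The SD of log2 CPM of Clec4g was 0.26 and 0.30 in the liver groups and 0.81 to 0.98 in the tumour groups. For Plvap it was 0.24 and 0.39 in livers and 0.24 to 0.46 in tumours. Tumours therefore weigh more in r for genes such as Clec4g. Stab2, Clec4g and Fcgr2b went together, with Pearson's r of 0.79 between Stab2 and Clec4g, 0.79 between Clec4g and Fcgr2b and 0.62 between Stab2 and Fcgr2b. Cd34, Esm1 and Pecam1 formed another set, which Kdr joined mainly through Pecam1, with r of 0.78 between Cd34 and Pecam1, 0.76 between Cd34 and Esm1, 0.69 between Pecam1 and Esm1 and 0.79 between Pecam1 and Kdr, but 0.48 between Kdr and Cd34 and 0.47 between Kdr and Esm1. Between the sets r was negative for Cd34 and Esm1, at -0.48 for Clec4g with Cd34, -0.43 for Stab2 with Cd34 and -0.46 for Clec4g with Esm1. Lyve1, listed as sinusoidal, had r of 0.52 with Kdr and 0.43 with Esm1 beside 0.36 with Clec4g and 0.32 with Stab2. Vwf, listed as a vessel gene, had r of 0.50 with Clec4g and -0.0043 with Cd34, and Plvap reached its highest r, 0.41, with Pecam1.

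**Figure D5:**
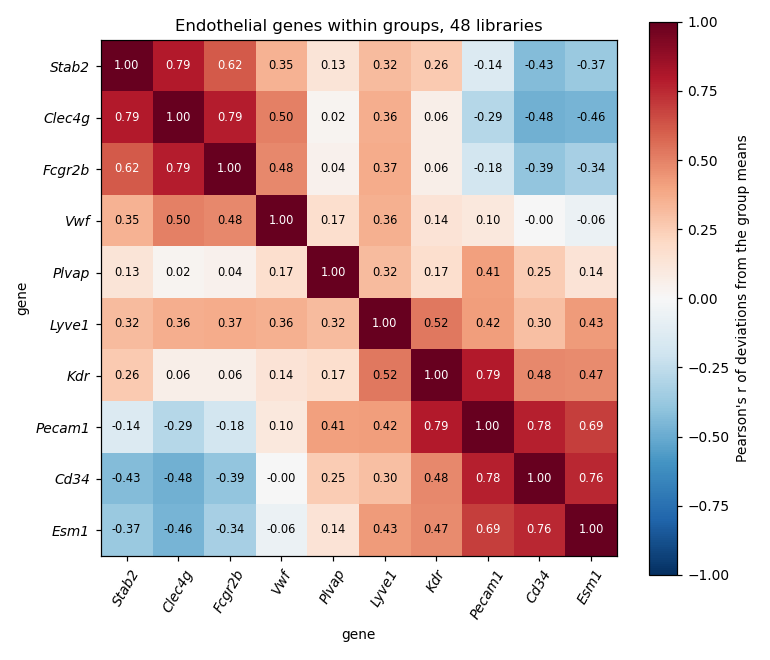
Pearson's r between the 10 genes over 48 libraries, each value of log2 CPM taken as its deviation from the group mean (colour scale from -1 to 1, r printed in each cell). Stab2, Clec4g and Fcgr2b have r of 0.62 to 0.79 with each other, and Clec4g has -0.48 with Cd34 and -0.46 with Esm1.

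By the same measure over 15985 genes, those most like Stab2 were Adamts13 (r 0.82), Ehd3 (0.81), Colec10 (0.79), Vipr1 (0.79) and Sema6d (0.78). The genes most like Cd34 were Cd93 (r 0.85), Emp1 (0.84), Col4a1 (0.83), Fam101b (0.82) and Ehd2 (0.81). Ehd3 and Col4a1 were also in the lists above, the first among other sinusoidal and the second among basement membrane genes.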

How the data were processed

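The deposited table holds raw counts per gene, not normalized. Per the methods of the authors, stranded mRNA was sequenced as paired ends, aligned by STAR (2 passes, mm10) and counted over Gencode M6 exons by HTSeq in its intersection-nonempty mode. Versions and the strand option are not given in the sources used here. Coordinates are from Gencode on GRCm38, the assembly called mm10, and promoters from RefSeq on GRCm38.p6.

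Counts were tested with edgeR 4.0.16 (glmQLFit and glmQLFTest) in R 4.3.3 after filterByExpr (minimum count 10, total 15) and TMM scaling, without covariates, in 7 comparisons that held only the groups compared. A call is a Benjamini-Hochberg adjusted p under 0.05 over all genes tested. Log2 CPM used a prior count of 2, and intervals are at 95%. Intervals and levels cover reads, not independent molecules. DESeq2 1.42.0, its size factors, no filter, all 6 groups in 1 fit, a 1.5-fold minimum, T1 kept and a replicate block were alternatives. Single libraries were also left out in turn. In the diet comparison of livers, ALIOS tumours against livers and diet in DEN tumours, each library was left out. In the DEN tumour against liver comparisons and the interaction, only DEN tumours were left out. Between ALIOS tumours with and without DEN, only those with DEN were left out. On simulated counts the fit recovered most of the known changes, fewer of the small ones. No library pair within a group was a duplicate by chi-square (237 pairs, at least 12.0 per gene), and pairs across groups were not checked.

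The 10 members and the lists of other genes were chosen with earlier results of these data known. Of each list at most the 3 called genes with the largest rise and the 3 with the largest fall were named in a comparison, plus the 5 genes most like Stab2 and the 5 most like Cd34. T7 gives values only. The result of 1 marker list is not reported here.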

Additional observations from a re-analysis of the deposited data

Results flagged for a closer look

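A sample far from the others of its group was searched for in 22 sets of 4 to 10 libraries, of which chance picks out about 1 in 20. Among ALIOS DEN tumours, T24 had a log2 CPM of Stab2 of 4.16 beside 5.40 to 5.96 in the others. In the same group T23 had 0.068 for Cd34 beside 1.94 to 3.09, and -0.72 for Esm1 beside 2.27 to 4.95. Among control DEN tumours, T18 had 4.74 for Stab2 beside 5.31 to 5.43, 3.12 for Clec4g beside 4.80 to 5.17, and -0.52 for the sinusoidal minus vessel level beside 1.26 to 1.97.

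The change from liver to DEN tumour differed between the diets, by an interaction test, in S1pr1 (0.64 on the log2 scale, higher on the ALIOS diet) and in Selp (-1.22, lower on the ALIOS diet). S1pr1 lost the call on leaving out T17, T19, T20, T23 or T25, and Selp on leaving out T17, T18, T19 or T20. Both calls were also lost without the low-count filter and with all 6 groups in 1 fit.

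T7, the tumour that entered no test, was above all 12 control livers in 6 of the 10 genes. It held 8.15 CPM of Lyve1 (control livers at most 5.98), 47.0 of Fcgr2b (at most 45.5), 7.28 of Cd34 (at most 1.04), 9.23 of Vwf (at most 5.04), 26.4 of Pecam1 (at most 17.99) and 17.1 of Esm1 (at most 2.13).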

How the results depend on the processing

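Of 1191 values under alternatives other than leaving out a library, 965 kept their direction and side of the threshold. Of 2621 with 1 library left out, 2397 did. The cause of the others was not tested, except that a 1.5-fold minimum asks for more by construction. In livers by diet, 2 members were called, 1 without the filter and 0 in the fit of all groups or with the 1.5-fold minimum, and 1542 genes became 2415 with DESeq2, 623 with all groups and 58 with the minimum. With the minimum the tumour comparisons kept 2, 2 and 5 members (1824, 2007 and 3226 genes). With T1 kept, 3 members were called in ALIOS tumours, Clec4g not among them. Between ALIOS tumours with and without DEN, DESeq2 called 75 genes and the fit of all groups 403. By diet in DEN tumours, DESeq2 called 152, no filter 1, all groups 296 and the minimum 0. In the interaction DESeq2 called 1 member (Plvap) and 646 genes, all groups 220 and the minimum 20.

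Library numbers occur in both tissues, but 0 of the libraries compared correlated best with its own number. With so few shared numbers this cannot decide whether a tumour and a liver came from the same mouse, and the main tests used no pairing. With the library numbers as a replicate block (2 and 4 numbers), 0 members and 379 genes were called in ALIOS tumours. In ALIOS DEN tumours 1 member and 1664 genes were called. Vwf was -0.68 and Ttr 0.073 in the first, Pf4 -0.57 and Krt19 -2.31 in the second. DESeq2 gave Pf4 -0.45 and Krt19 -1.14, and with 1 library left out they ran from -0.45 to 2.33 and from -1.22 to 2.81, the low ends without T24.

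Stab2 in ALIOS DEN tumours turned to -0.015 with size factors, -0.021 with DESeq2, -0.023 without the filter and -0.041 with all groups, and Clec4g in livers to 0.016 with all groups. The balance on levels per kilobase with medians was -1.19, -3.11, -2.72 and -4.37 for diet and the 3 tumour comparisons, and in control DEN tumours -3.30 without Lyve1, -3.23 without Plvap, -3.26 without Vwf and -1.51 without Esm1.

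With single libraries left out, the diet comparison of livers gave 0 (without N17 or N19) to 3 members and 949 to 2343 genes. DEN against other tumours gave 0 to 15 genes, diet in DEN tumours 0 to 19 genes, and the interaction 0 to 2 members and 174 to 732 genes. No liver was left out in the DEN tumour against liver comparisons or the interaction. Beside Pf4 and Krt19, the log2 fold changes that crossed 0 belonged to members without a call. In livers by diet they were Clec4g (-0.067 to 0.043), Fcgr2b (-0.080 to 0.016) and Kdr (-0.073 to 0.012). Kdr ran from -0.014 to 0.11 in ALIOS tumours, -0.18 to 0.040 in ALIOS DEN tumours and -0.25 to 0.0060 in control DEN tumours, and Stab2 from -0.067 to 0.15 in ALIOS DEN tumours. Between ALIOS tumours with and without DEN, Fcgr2b ran from -0.035 to 0.18 and Lyve1 from -0.44 to 0.015. By diet in DEN tumours the ranges were -0.16 to 0.21 for Clec4g, -0.50 to 0.43 for Esm1, -0.12 to 0.14 for Kdr and -0.28 to 0.092 for Pecam1, and in the interaction -0.16 to 0.19 for Clec4g and -0.096 to 0.16 for Kdr. Depth limits the liver levels of Esm1 and Cd34, whose lowest counts were 1 and 8.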
